A study of Homo sapiens with 8 samples.

Results

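10 genes of the NOTCH pathway were followed across 2 established lines of lung adenocarcinoma, ABC1 and HCC4006: the receptors *NOTCH1*, *NOTCH2* and *NOTCH3*, the ligands *JAG1*, *JAG2* and *DLL1*, and the targets *HES1*, *HES4*, *HEY1* and *NRARP*. They were chosen by name, with earlier results of these data known, as 10 of the 57815 gene identifiers in the expression files. All 10 identifiers were found. Both lines carry no mutation of *KEAP1* or *NRF2* and were grown in low-glucose DMEM with serum. They were treated for 16 h with 100 μM diethyl maleate (DEM), an electrophile that inhibits KEAP1 and so raises NRF2, or with the vehicle DMSO. The 4 groups, vehicle and DEM in ABC1 and vehicle and DEM in HCC4006, held 2 libraries each, replicates 0 and 1, for 8 libraries in all. Each line is a single line, and the DEM treatment was a single dose at a single time.

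NOTCH receptors are membrane proteins that bind JAG or DLL ligands on a neighboring cell, after which ADAM proteases and γ-secretase cut the receptor and free its intracellular domain. That domain enters the nucleus, joins the DNA-binding protein RBPJ and a MAML co-activator, and switches on target genes, among them the transcriptional repressors *HES1*, *HES4* and *HEY1* and the feedback inhibitor *NRARP*. In the lung the pathway is known for directing airway cell fate, and in lung cancer for maintaining stem-like cells.

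Levels are given in FPKM, fragment counts normalized for both transcript length and sequencing depth, so that different genes can be compared per length. FPKM values summed to between 627085 and 737534 per library, and between 12515 and 13573 genes per library reached 1 FPKM. The exact depth of each library is unknown, and intervals from counting error are left out. The authors' base mean, a mean of depth-scaled counts over the 4 libraries of a line, summed to 13786938 in ABC1 and to 13957320 in HCC4006. All 5 epithelial markers (*EPCAM*, *CDH1*, *KRT8*, *KRT18* and *KRT7*) reached 1 FPKM in every library. Of the 6 identifiers of lung adenocarcinoma markers (*NKX2-1*, *NAPSA*, *SFTPB*, *SFTPC* and *SFTA3*), 3 reached 1 FPKM in every HCC4006 library, with a sum of 67.3 to 77.5 FPKM, whereas none did in ABC1, with a sum of 0.996 to 1.39 FPKM, so the labeled tissue of ABC1 was not visible in these markers. *NQO1*, *GCLM*, *TXNRD1*, *SRXN1* and *HMOX1*, well-known NRF2 targets, were all called higher with DEM in both lines by limma. The endothelial markers *CDH5* and *VWF* summed to at most 0.236 FPKM, and no identifier was found for *PECAM1*, also on that list. Of 3 hematopoietic markers, only *CD68*, a macrophage marker, reached 1 FPKM in any library. These 3 summed to 1.55 to 2.54 FPKM in ABC1 and to 89.5 to 102 FPKM in HCC4006, where the authors' base mean of *CD68* was only 5.56. The 4 fibroblast markers summed to 3.69 to 6.14 FPKM in ABC1 and to 7.07 to 9.14 FPKM in HCC4006, and their part in the line differences below was not tested.

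Promoter sequences were looked up because *HES1* and *HES4*, targets of the same pathway, differed between the lines in opposite directions. A further reason was *NOTCH1*, the receptor called higher with DEM in HCC4006 and not called in ABC1. That call was lost whichever HCC4006 library was left out, as given below. RefSeq windows on GRCh38.p14, each reaching from 250 bases before the start site to 50 after it, existed for 8 of the 10 genes and not for *DLL1* and *HEY1*. On either strand, the RBPJ-type motif GTGGGAA occurred in 6.25% of all 35116 windows, and among the 8 genes it occurred once in *HES1* and once in *HES4* and was not in the window of the other 6. Its first base lay 85 bases before the start site of *HES1* and 77 bases before that of *HES4*. The core of the antioxidant response element, searched as TGACNNNGC, occurred in 13.35% of all windows and in 0 of the 8. These windows leave out distant elements, and the study places the NRF2 site of *NOTCH3* far upstream, between *NOTCH3* and *EPHX3*. GC boxes (GGGCGG), found in 44.95% of windows, occurred 4 times in *NOTCH1*, 5 times in *NOTCH3* and 0 times in *HES1*. TATAAA, found in 11.53% of windows, occurred only in *NRARP*, 41 bases before the start site. A match of letters is a description of the window and not a bound site. The 250 bases before the start site are shown 5′ to 3′ on the strand of the gene for *HES1* (chr3:194135898-194136147, plus strand) and *HES4* (chr1:1000098-1000347, minus strand), with GTGGGAA in capitals, and for *NOTCH1* (chr9:136546049-136546298, minus strand), with its 4 GC boxes in capitals, the middle pair of which overlap by 1 base.
*HES1*: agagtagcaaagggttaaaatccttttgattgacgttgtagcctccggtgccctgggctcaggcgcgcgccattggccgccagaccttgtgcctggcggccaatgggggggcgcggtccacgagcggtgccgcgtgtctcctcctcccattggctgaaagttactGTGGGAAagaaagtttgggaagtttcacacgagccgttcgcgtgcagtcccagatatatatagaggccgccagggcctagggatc
*HES4*: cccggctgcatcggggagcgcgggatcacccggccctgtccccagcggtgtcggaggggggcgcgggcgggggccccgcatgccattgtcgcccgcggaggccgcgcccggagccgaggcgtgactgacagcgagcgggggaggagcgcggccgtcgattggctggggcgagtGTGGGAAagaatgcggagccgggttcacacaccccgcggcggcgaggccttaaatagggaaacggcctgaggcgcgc
*NOTCH1*: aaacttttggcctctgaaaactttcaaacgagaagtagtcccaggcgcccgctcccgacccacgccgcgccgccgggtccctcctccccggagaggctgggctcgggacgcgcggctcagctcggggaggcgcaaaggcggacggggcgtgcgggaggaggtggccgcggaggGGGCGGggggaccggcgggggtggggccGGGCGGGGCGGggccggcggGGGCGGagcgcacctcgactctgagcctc

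**Figure D1:**
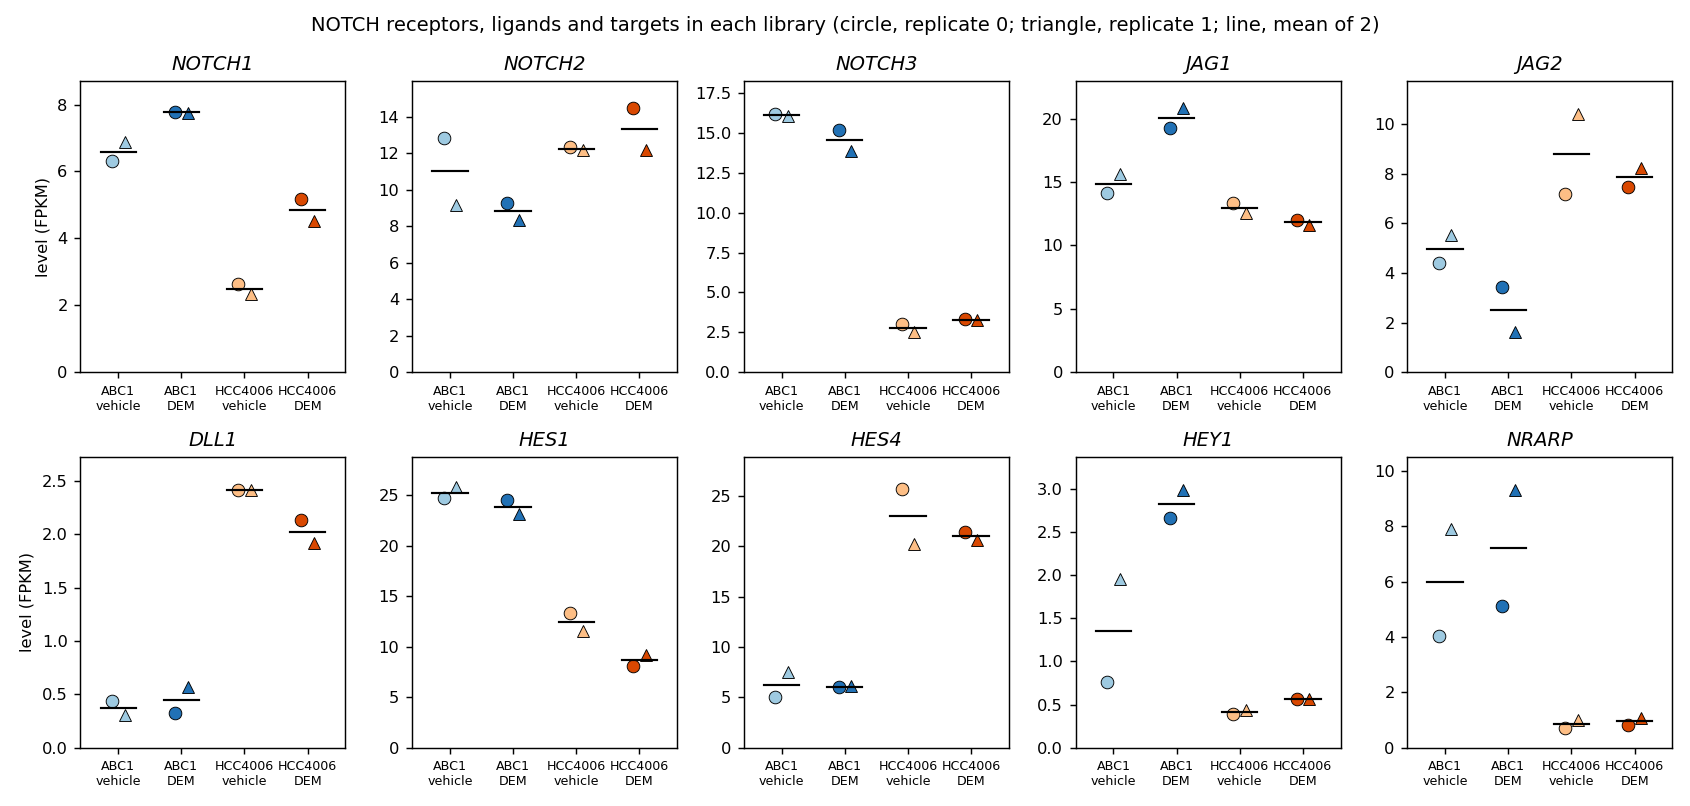
Level in FPKM (y axis, linear, from 0 in each panel) of the 10 genes in the 4 groups (x axis). Circles are replicate 0, triangles are replicate 1 and lines are the mean of 2 libraries. *NOTCH1*, *NOTCH3*, *JAG1*, *HES1*, *HEY1* and *NRARP* lay higher in every ABC1 library than in any HCC4006 library, and *JAG2*, *DLL1* and *HES4* lower. *NOTCH2* overlapped between the lines.

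The receptor make-up of the lines differed, with *NOTCH3* the most abundant receptor RNA in ABC1 and *NOTCH2* in HCC4006. *NOTCH3* (ENSG00000074181.4, chr19:15269849-15311806 on GRCh37, minus strand), a receptor best known from vascular smooth muscle, had 16.2 and 16.1 FPKM in the vehicle libraries of ABC1 and 3.01 and 2.49 FPKM in those of HCC4006. With vehicle it was 5.87 times as high in ABC1, a difference of -2.20 on the log2(FPKM + 1) scale for HCC4006 minus ABC1 (SE 0.12, adjusted p = 8.5e-05 by limma). The pseudocount of 1 makes such differences smaller than the ratio of levels for genes with low FPKM, and every adjusted p is that of limma, corrected over all genes tested by the Benjamini-Hochberg method, with a threshold of 0.05. In the DEM libraries *NOTCH3* had 15.2 and 13.9 FPKM in ABC1 and 3.32 and 3.25 FPKM in HCC4006, and the difference was -1.86 (SE 0.13, adjusted p = 1.7e-04 by limma). No HCC4006 library reached the level of any ABC1 library, and the difference passed the threshold whichever single library was left out, in both treatments.

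*NOTCH1* (ENSG00000148400.9, chr9:139388885-139440500, minus strand), the founding receptor of the family, was also higher in ABC1. With vehicle it had 6.31 and 6.87 FPKM in ABC1 and 2.63 and 2.33 FPKM in HCC4006, a difference of -1.13 (SE 0.12, adjusted p = 8.5e-04 by limma). With DEM it had 7.79 and 7.74 FPKM in ABC1 and 5.17 and 4.53 FPKM in HCC4006, a difference of -0.58 (SE 0.13, adjusted p = 0.0117 by limma). The ratio of ABC1 to HCC4006 was thus 2.66 with vehicle and 1.6 with DEM, and in neither treatment did the lines overlap.

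*NOTCH2* (ENSG00000134250.13, chr1:120454176-120643366, minus strand) did not pass the test between the lines with vehicle and did so with DEM. It had 12.8 and 9.18 FPKM in ABC1 and 12.3 and 12.2 FPKM in HCC4006, a difference of 0.16 (SE 0.17, 95% confidence interval -0.27 to 0.59, adjusted p = 0.440 by limma). In the DEM libraries it had 9.27 and 8.36 FPKM in ABC1 and 14.5 and 12.2 FPKM in HCC4006, and the difference of 0.54 (SE 0.14, adjusted p = 0.0196 by limma) passed the threshold. The calls for *NOTCH2* turned on single libraries: with DEM the call was lost without replicate 1 of ABC1 and without replicate 0 or 1 of HCC4006 (adjusted p = 0.0669, 0.159 and 0.0807 by limma), and with vehicle a call was gained without replicate 0 of ABC1 (difference 0.38, adjusted p = 0.0489 by limma). *NOTCH2* shares sequence with the NOTCH2NL genes, so its level is uncertain by the reads these copies may take or give. The related pseudogene *NOTCH2P1* was listed at 0 in all 8 libraries. No identifier was found under a NOTCH2NL symbol, so the levels of those copies are not known here.

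As a share of the summed FPKM of the 4 receptors, *NOTCH3* made up 47.9% ± 2.85 (SD, n = 2) in ABC1 with vehicle and 15.4% ± 1.59 (SD, n = 2) in HCC4006 with vehicle. *NOTCH2* made up 32.4% ± 5.49 (SD, n = 2) and 68.5% ± 1.42 (SD, n = 2) in the same groups, and *NOTCH1* 19.6% ± 2.48 (SD, n = 2) and 13.9% ± 0.750 (SD, n = 2). The order was therefore *NOTCH3*, *NOTCH2*, *NOTCH1* in every ABC1 library, whereas in every HCC4006 library *NOTCH2* came first by far. With DEM the share of *NOTCH1* was 22.1% ± 0.0233 (SD, n = 2) in HCC4006, above its 2 vehicle libraries at 14.4% and 13.3%, and that of *NOTCH3* was 15.0% ± 1.15 (SD, n = 2), so *NOTCH1* exceeded *NOTCH3* in both DEM libraries of HCC4006 and lay under it in both vehicle libraries. The summed receptor level was 33.8 ± 2.26 FPKM (SD, n = 2) in ABC1 and 17.9 ± 0.539 FPKM (SD, n = 2) in HCC4006 with vehicle. *NOTCH4*, the fourth receptor, stayed at or under 0.088 FPKM in ABC1 and between 0.291 and 0.577 FPKM in HCC4006. Shares were not tested, and in these bulk samples a smaller number of cells that express a gene cannot be told apart from less RNA per cell.

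**Figure D2:**
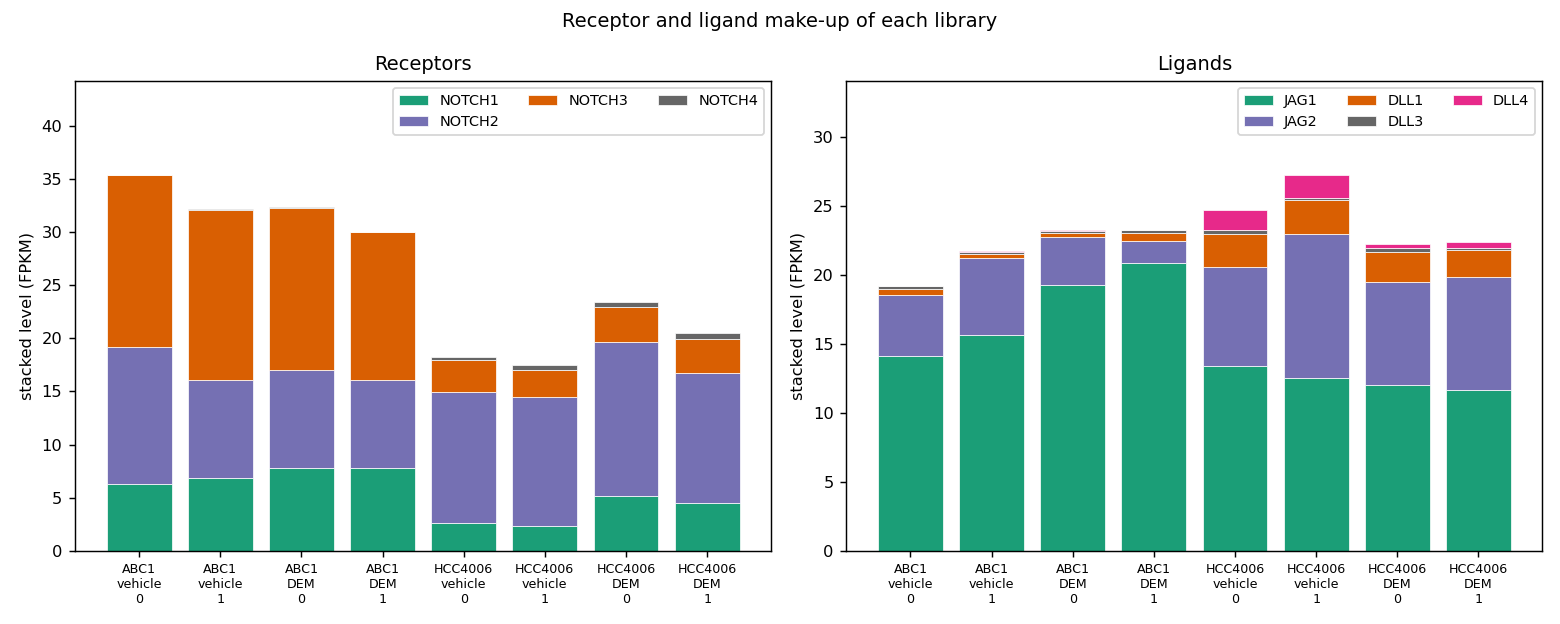
Stacked FPKM (y axis, linear) of the 4 receptors (left) and 5 ligands (right) in each of the 8 libraries (x axis, line, treatment and replicate). *NOTCH3* fills 45.9% to 49.9% of the receptor bars of ABC1 and 14.2% to 16.5% of those of HCC4006, and *DLL4* is widest in the ligand bars of the 2 vehicle libraries of HCC4006, at 5.96% and 6.17%.

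*JAG1* was the leading ligand in both lines. *JAG1* (ENSG00000101384.7, chr20:10618332-10654647, minus strand), a ligand with broad use in epithelia, had 14.1 and 15.6 FPKM in ABC1 and 13.4 and 12.5 FPKM in HCC4006 with vehicle, and the difference of -0.19 did not pass the test (SE 0.11, 95% confidence interval -0.46 to 0.09, adjusted p = 0.176 by limma). Under DEM the values were 19.3 and 20.8 FPKM in ABC1 and 12.04 and 11.6 FPKM in HCC4006, a difference of -0.71 (SE 0.11, adjusted p = 0.00355 by limma). That call was lost without replicate 0 or replicate 1 of HCC4006 (adjusted p = 0.0588 and 0.0635 by limma). Its share of the summed ligand FPKM was 72.8% in ABC1 and 50.1% in HCC4006 with vehicle, as means of 2 libraries.

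*JAG2* and *DLL1* were higher in HCC4006 than in ABC1. *JAG2* (ENSG00000184916.4, chr14:105607319-105635161, minus strand), the second Jagged ligand, had 4.39 and 5.55 FPKM in ABC1 and 7.18 and 10.4 FPKM in HCC4006 with vehicle, a difference of 0.70 (SE 0.20, adjusted p = 0.0278 by limma). With DEM it had 3.44 and 1.6 FPKM in ABC1 and 7.47 and 8.25 FPKM in HCC4006, a difference of 1.38 (SE 0.27, adjusted p = 0.00757 by limma). The groups did not overlap, but the *JAG2* replicates were far apart, and with vehicle its call was lost whichever one of the 4 libraries was left out (adjusted p = 0.0550 to 0.175 by limma). The call with DEM was lost without replicate 0 or replicate 1 of HCC4006 (adjusted p = 0.108 and 0.122 by limma).

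*DLL1* (ENSG00000198719.7, chr6:170591294-170615653, minus strand), a Delta-like ligand, lay under the minimum of 1 FPKM for testing in ABC1 and above it in HCC4006. It had 0.435 and 0.304 FPKM in ABC1 and 2.42 and 2.41 FPKM in HCC4006 with vehicle, 6.53 times as high in HCC4006 and a difference of 1.32 (SE 0.14, adjusted p = 7.3e-04 by limma). In the DEM libraries it had 0.329 and 0.572 FPKM in ABC1 and 2.13 and 1.91 FPKM in HCC4006, a difference of 1.06 (SE 0.16, adjusted p = 0.00296 by limma). *DLL1* made up 1.83% of the ligand FPKM in ABC1 and 9.32% in HCC4006 with vehicle.

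The targets did not follow a single direction between the lines. *HES1* (ENSG00000114315.3, chr3:193853937-193856521, plus strand), a repressor of differentiation genes, had 24.7 and 25.8 FPKM in ABC1 and 13.3 and 11.6 FPKM in HCC4006 with vehicle, a difference of -0.97 (SE 0.11, adjusted p = 9.4e-04 by limma). Under DEM the values were 24.5 and 23.2 FPKM in ABC1 and 8.13 and 9.22 FPKM in HCC4006, a difference of -1.36 (SE 0.12, adjusted p = 4.4e-04 by limma). *HES1* was thus 2.03 times as high in ABC1 with vehicle and 2.75 times with DEM.

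*HES4* (ENSG00000188290.6, chr1:934342-935552, minus strand), a repressor of the same family, was instead higher in HCC4006. It had 5.0 and 7.5 FPKM in ABC1 and 25.7 and 20.3 FPKM in HCC4006 with vehicle, a difference of 1.74 (SE 0.21, adjusted p = 0.00117 by limma). With DEM it had 6.05 and 6.10 FPKM in ABC1 and 21.4 and 20.7 FPKM in HCC4006, a difference of 1.64 (SE 0.11, adjusted p = 1.8e-04 by limma). *HES4* was 3.68 times as high in HCC4006 with vehicle and 3.46 times with DEM, so the lines differed in opposite directions for the 2 genes whose windows held GTGGGAA.

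*NRARP* (ENSG00000198435.2, chr9:140194083-140196723, minus strand), which lowers the amount of the free intracellular domain, was higher in ABC1. It had 4.05 and 7.90 FPKM in ABC1 and 0.720 and 1.01 FPKM in HCC4006 with vehicle, a difference of -1.85 (SE 0.29, adjusted p = 0.00303 by limma). In the DEM libraries it had 5.11 and 9.30 FPKM in ABC1 and 0.836 and 1.06 FPKM in HCC4006, a difference of -2.03 (SE 0.27, adjusted p = 0.00181 by limma). In ABC1, replicate 1 had the higher *NRARP* level with either treatment, and the lines did not overlap. In both treatments *NRARP* met the minimum of 1 FPKM only through ABC1.

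*HEY1* (ENSG00000164683.12, chr8:80674606-80680092, minus strand), a repressor related to the HES proteins, had 0.757 and 1.95 FPKM in ABC1 and 0.393 and 0.441 FPKM in HCC4006 with vehicle, with an average under 1 FPKM over the 4 libraries, so that it was not tested there. In 1 fit of all 8 libraries, where it reached the minimum, the difference was -0.68 (adjusted p = 0.0334 by limma), and without a minimum the adjusted p was 0.258 by limma. Under DEM the values were 2.66 and 2.99 FPKM in ABC1 and 0.563 and 0.565 FPKM in HCC4006, a difference of -1.29 (SE 0.14, adjusted p = 9.3e-04 by limma). The HCC4006 libraries were the lower ones in both treatments. In both of these fits *HEY1* met the minimum of 1 FPKM only through ABC1, with means of 0.417 FPKM (vehicle) and 0.564 FPKM (DEM) in HCC4006.

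With vehicle, 7 of the 9 genes tested were called different between the lines, 3 higher and 4 lower in HCC4006, beside 37.3% of all genes called higher and 30.4% called lower there. With DEM, 10 of 10 were called, 4 higher and 6 lower in HCC4006, beside 34.8% of all genes called higher and 28.8% called lower. The lines differed in most of their genes, so the count of genes called is read against these shares. *DLL1* and *NRARP* in both treatments, and *HEY1* with DEM, met the minimum of 1 FPKM only through the line where they were higher. Leaving out 1 library lowered the count with vehicle to 4 without replicate 0 of HCC4006 and the count with DEM to 4 and 5 without replicates 0 and 1 of HCC4006. In those 3 fits *NOTCH3* and *HES1* were called each time, as was *DLL1* where it was tested (without DEM replicate 0 of HCC4006 it averaged under 1 FPKM), whereas *NOTCH1*, *NOTCH2*, *JAG1* and *JAG2* were lost in both fits with DEM (adjusted p = 0.0714 and 0.107 for *NOTCH1* by limma). *HES4* was lost with vehicle without replicate 0 of HCC4006 (adjusted p = 0.0507 by limma), as was *JAG2*. In both treatments *NRARP* was lost without either HCC4006 library, with adjusted p between 0.0582 and 0.0825 by limma.

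**Figure D3:**
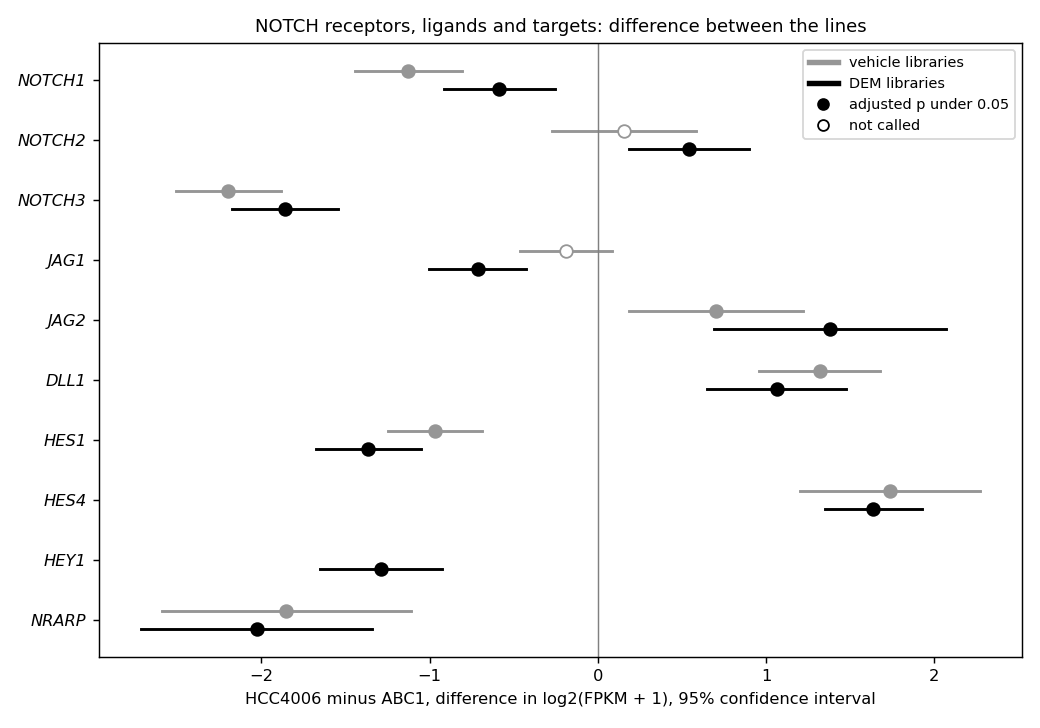
Difference between the lines in log2(FPKM + 1), HCC4006 minus ABC1 (x axis), for each of the 10 genes (y axis), with vehicle in gray and with DEM in black; points are estimates, bars are 95% confidence intervals and filled points passed an adjusted p of 0.05. *NOTCH3*, at -2.20 and -1.86, and *NRARP*, at -1.85 and -2.03, lie farthest to the left, and *HES4*, at 1.74 and 1.64, farthest to the right; *HEY1* was tested only with DEM.

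In HCC4006, DEM raised *NOTCH1* and lowered *HES1*, and the other 6 genes tested did not pass. Of the 8 genes tested, 1 was called higher and 1 lower with DEM, beside 8.45% of all genes called higher and 10.7% called lower. *NOTCH1* went from 2.63 and 2.33 FPKM with vehicle to 5.17 and 4.53 FPKM with DEM, or from 2.48 ± 0.209 to 4.85 ± 0.454 FPKM (SD, n = 2). Both DEM libraries lay above both vehicle libraries, a ratio of 1.96 and a log2 difference of 0.75 (SE 0.14, 95% confidence interval 0.40 to 1.10, adjusted p = 0.0214 by limma). *HES1* went from 13.3 and 11.6 FPKM to 8.13 and 9.22 FPKM, or from 12.4 ± 1.23 to 8.68 ± 0.765 FPKM (SD, n = 2). Both DEM libraries lay below both vehicle libraries, a ratio of 0.697 and a log2 difference of -0.47 (SE 0.12, 95% confidence interval -0.77 to -0.18, adjusted p = 0.0441 by limma). Both calls were lost whichever one of the 4 HCC4006 libraries was left out, with adjusted p = 0.0611 to 0.0976 for *NOTCH1* and 0.0845 to 0.194 for *HES1* by limma, while the direction stayed.

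*NOTCH3* did not pass the test in HCC4006. It had 3.01 and 2.49 FPKM with vehicle and 3.32 and 3.25 FPKM with DEM, a log2 difference of 0.19 (95% confidence interval -0.17 to 0.56, adjusted p = 0.385 by limma). *NOTCH2* had a log2 difference of 0.11 (adjusted p = 0.524 by limma) and overlapped between treatments. The ligands *JAG1*, *JAG2* and *DLL1* had log2 differences of -0.12, -0.13 and -0.18 (adjusted p = 0.407, 0.638 and 0.442 by limma). *HES4* had a log2 difference of -0.11 (adjusted p = 0.552 by limma). *HEY1* and *NRARP* averaged under 1 FPKM in HCC4006 and were not tested there. Of the 8 genes tested, 5 had vehicle and DEM libraries that did not overlap (*NOTCH1*, *NOTCH3*, *JAG1*, *DLL1* and *HES1*), beside 64.6% of all genes tested.

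In ABC1, 0 of the 9 genes tested were called by limma after adjustment, beside 0.768% of all genes called higher and 0.435% called lower with DEM, and 3 had an unadjusted p under 0.05, as had 2771 of all 12635 genes tested. *JAG1* had 14.1 and 15.6 FPKM with vehicle and 19.3 and 20.8 FPKM with DEM, a ratio of 1.35 and a log2 difference of 0.41 (SE 0.13, adjusted p = 0.159 by limma). It was called with the replicate number as a block (adjusted p = 0.0401 by limma) and in 1 fit of all 8 libraries (adjusted p = 0.0452 by limma). *JAG2* had 4.39 and 5.55 FPKM with vehicle and 3.44 and 1.6 FPKM with DEM, a log2 difference of -0.81 (SE 0.29, adjusted p = 0.189 by limma). *HEY1* had 0.757 and 1.95 FPKM with vehicle and 2.66 and 2.99 FPKM with DEM, a log2 difference of 0.75 (SE 0.29, adjusted p = 0.214 by limma). In all 3 the treatments did not overlap, *JAG1* and *HEY1* being higher and *JAG2* lower in both DEM libraries.

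*NOTCH3* in ABC1 had 16.2 and 16.1 FPKM with vehicle and 15.2 and 13.9 FPKM with DEM, a log2 difference of -0.14 (95% confidence interval -0.45 to 0.17, adjusted p = 0.548 by limma). *NOTCH1* and *NOTCH2* had log2 differences of 0.21 and -0.28 (adjusted p = 0.428 and 0.436 by limma). *HES1* and *HES4* had log2 differences of -0.08 and -0.01 (adjusted p = 0.74 and 0.979 by limma). *NRARP* had a log2 difference of 0.24 with a wide 95% confidence interval of -0.63 to 1.12 (adjusted p = 0.725 by limma). *DLL1* averaged under 1 FPKM in ABC1 and was not tested there. Of the 9 genes tested, 6 had libraries that did not overlap between treatments (*NOTCH1*, *NOTCH3*, *JAG1*, *JAG2*, *HES1* and *HEY1*), beside 53.7% of all genes tested. The smallest difference called among all genes in ABC1 was 0.80 on the log2 scale, against 0.22 in HCC4006.

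**Figure D4:**
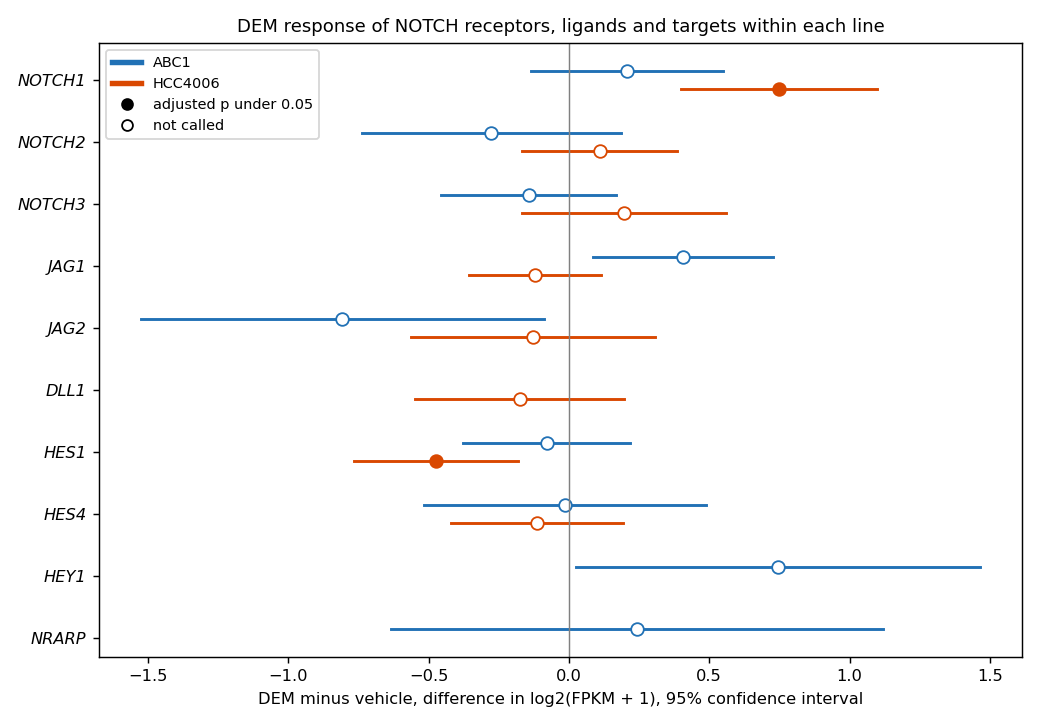
DEM minus vehicle in log2(FPKM + 1) (x axis) for the 10 genes (y axis), in ABC1 (blue) and HCC4006 (orange); points are estimates, bars are 95% confidence intervals and filled points passed an adjusted p of 0.05. The filled points are *NOTCH1* at 0.75 and *HES1* at -0.47, both in HCC4006; genes without a point in a line averaged under 1 FPKM there.

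The response to DEM was not shown to differ between the lines for any of the 10 genes. The difference of the responses, HCC4006 minus ABC1, was tested in a fit of all 8 libraries, in which 0 of the 10 passed by limma after adjustment, beside 0.307% of all genes with a higher and 0.329% with a lower response in HCC4006, and 3 of the 10 had an unadjusted p under 0.05, as had 2068 of all 13682 genes tested. These were *JAG1*, at -0.53 (SE 0.14, adjusted p = 0.157 by limma), *NOTCH1*, at 0.54 (SE 0.17, adjusted p = 0.196 by limma), and *HES1*, at -0.39 (SE 0.16, adjusted p = 0.295 by limma). The difference for *NOTCH3* was 0.34 (95% confidence interval -0.04 to 0.72, adjusted p = 0.390, limma). For *NOTCH2*, *JAG2*, *DLL1*, *HES4*, *HEY1* and *NRARP* the adjusted p lay between 0.461 and 0.907 by limma. A missed threshold does not show that the lines responded alike.

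The genes with patterns most like those of *NOTCH3*, *HES1* and *JAG1* over the 8 libraries were found among 13682 genes by the root mean square difference of log2(FPKM + 1), after centering each gene. For *NOTCH3* they were *PTPRF* (0.0894), *DLX6-AS1* (0.0963) and *GATA2* (0.0970), all higher in each ABC1 library than in any HCC4006 library. For *HES1* they were *RALGPS2* (0.0623), *DNAJC19* (0.0777) and ENSG00000235423.4 (0.0833), which has no symbol here. For *JAG1* they were *FOXM1* (0.0488), *SMIM11* (0.0600) and *MAP3K13* (0.0669). *FOXM1* had 75.5 and 85.7 FPKM with vehicle and 94.7 and 108.6 FPKM with DEM in ABC1, and it had 73.7 and 68.5 FPKM with vehicle and 67.5 and 61.0 FPKM with DEM in HCC4006. All genes were compared over the same 8 libraries, and the likeness is a description with no test.

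A list of 56 other NOTCH pathway genes was grouped by role. In HCC4006, 45 of them were tested, of which 5 were called higher and 6 lower with DEM, beside the 8.45% and 10.7% of all genes given above, with a median log2 difference of 0.02 beside -0.03 over all genes and -0.12 over the 8 genes above. The 11 calls fell to between 3 and 5 when any one HCC4006 library was left out and to 1 without the minimum of 1 FPKM. *NUMBL*, a relative of the NOTCH inhibitor NUMB, had 7.98 and 8.66 FPKM with vehicle and 18.2 and 17.1 FPKM with DEM (log2 difference 1.0, adjusted p = 0.00383 by limma). *ADAM17*, a sheddase able to cut NOTCH receptors, had 16.0 and 17.7 FPKM with vehicle and 29.0 and 30.5 FPKM with DEM (log2 difference 0.78, adjusted p = 0.00567 by limma). *DVL1*, a Wnt signaling protein that also binds NOTCH, had a log2 difference of 0.43 (adjusted p = 0.0154 by limma). The other genes called higher were *MIB1* and *ITCH*, ubiquitin ligases of ligand and receptor.

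Among the genes of the list called in HCC4006, *NEURL1B*, a ubiquitin ligase of ligands, had the largest decrease on the log2(FPKM + 1) scale. It fell from 4.43 and 4.81 FPKM with vehicle to 1.62 and 1.27 FPKM with DEM (log2 difference -1.21, adjusted p = 0.00747 by limma). *MAML2*, a co-activator, fell from 6.73 and 6.48 FPKM to 3.53 and 3.44 FPKM (log2 difference -0.76, adjusted p = 0.0124 by limma). *LFNG*, the fringe enzyme that adds sugar to receptors and alters their choice of ligand, fell from 28.3 and 27.7 FPKM to 17.3 and 20.7 FPKM (log2 difference -0.54, adjusted p = 0.0235 by limma). In each of these the treatments did not overlap. *DTX3* and *DTX4*, of the Deltex family, and *NCSTN*, a γ-secretase subunit, were the other genes called lower. By role, 7 of 13 genes of endocytosis and turnover tested were called (4 higher, 3 lower) and 2 of 9 of receptor cleavage (1 higher, 1 lower). The counts were 1 of 4 of fringe and O-glycosylation (lower), 1 of 7 of the nuclear complex (lower), 0 of 9 co-repressors and 0 of 3 targets. All genes were called at 8.45% higher and 10.7% lower. The roles were not tested, and the calls lost without single libraries were not split by role.

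In ABC1, 42 of the 56 were tested, with a median log2 difference of 0.07 beside -0.02 over all genes and -0.01 over the 9 genes above. Of these, 1 was called, beside 0.768% of all genes called higher and 0.435% called lower. This was *NUMBL*, which had 15.3 and 17.1 FPKM with vehicle and 44.1 and 48.6 FPKM with DEM (log2 difference 1.46, adjusted p = 0.0210 by limma). *NUMBL* was the one gene of the list called higher in both lines, but its call in ABC1 was lost without replicate 0 or replicate 1 of the vehicle libraries and without the minimum of 1 FPKM. *ADAM17*, *DVL1*, *ITCH* and *MIB1* were not called in ABC1 but had log2 differences of 0.63, 0.43, 0.46 and 0.38 there. *LFNG* and *MAML2*, also not called, had -0.61 and -0.49. In each of these genes the treatments did not overlap in ABC1. *DTX4* and *NCSTN*, called lower in HCC4006, instead had 0.26 and 0.01 in ABC1. *NEURL1B* and *DTX3*, also called lower in HCC4006, averaged under 1 FPKM in ABC1 and were not tested there. In ABC1, 8 genes of the list were called with the replicate number as a block and 7 in 1 fit of all 8 libraries. Over all genes, 18.6% and 10.9% were called in these fits. No gene of the list passed the test of the difference between the responses (0 of 44 by limma). The shares over all genes were 0.307% with a higher and 0.329% with a lower response in HCC4006. An unadjusted p under 0.05 was found for 7 of the 44, as for 2068 of all 13682 genes tested. *DLL4*, a ligand of vascular sprouting that averaged under 1 FPKM over the HCC4006 libraries and so was not tested, had 1.47 and 1.68 FPKM with vehicle and 0.324 and 0.474 FPKM with DEM there, and at most 0.0898 FPKM in ABC1. Its share of the ligand FPKM in HCC4006 was 6.07% ± 0.151 (SD, n = 2) with vehicle and 1.79% ± 0.469 (SD, n = 2) with DEM. *DLL3* lay between 0.119 and 0.307 FPKM in every library. *DLK1* was listed at 0 in ABC1, and *DLK2* stayed under 1 FPKM in every library.

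**Figure D5:**
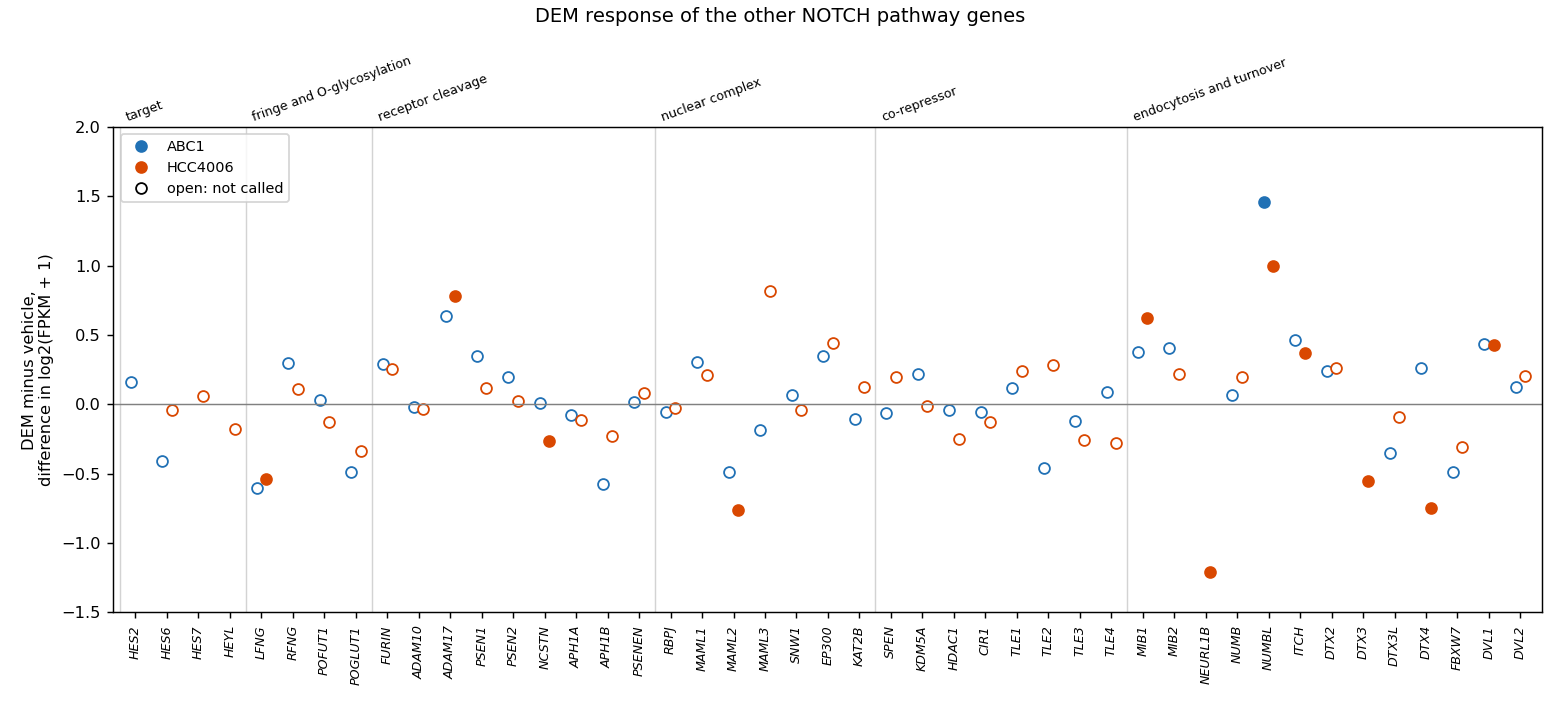
DEM minus vehicle in log2(FPKM + 1) (y axis) for the other NOTCH pathway genes reported here and tested in at least 1 line (x axis, grouped by role, with role names above), in ABC1 (blue) and HCC4006 (orange). Filled points passed an adjusted p of 0.05; *NUMBL*, at 1.46 and 1.0, is the one gene filled in both lines, and *NEURL1B*, at -1.21 in HCC4006, is the lowest point.

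Between the lines, 31 of 44 of these genes tested were called with vehicle (15 higher and 16 lower in HCC4006) and 29 of 42 with DEM (13 higher and 16 lower). All genes were called at 37.3% higher and 30.4% lower with vehicle and at 34.8% and 28.8% with DEM, so these counts lay near the background. They fell to 17 and 19 with vehicle without replicates 0 and 1 of HCC4006, and to 11 and 12 with DEM. With all 4 libraries of each treatment, 23 of the 31 and of the 29 were called the same way in both treatments and 0 in opposite ways. *LFNG* had 3.63 and 5.01 FPKM in ABC1 and 28.3 and 27.7 FPKM in HCC4006 with vehicle (difference 2.46, adjusted p = 1.2e-04 by limma). *DTX3* had 0.0987 and 0.153 FPKM in ABC1 and 10.3 and 8.47 FPKM in HCC4006 (difference 3.20, adjusted p = 4.6e-05 by limma). *NEURL1B* was also higher in HCC4006 (difference 2.03, adjusted p = 1.4e-04 by limma). Both met the minimum of 1 FPKM only through HCC4006, with vehicle means of 0.126 and 0.373 FPKM in ABC1. *DTX4* had 55.9 and 59.1 FPKM in ABC1 and 8.63 and 7.19 FPKM in HCC4006 (difference -2.72, adjusted p = 3.9e-05 by limma). Of the Deltex family with vehicle, *DTX2*, *DTX3* and *DTX3L* were called higher in HCC4006 (differences 0.38, 3.20 and 1.18) and *DTX4* lower. *FURIN*, which cleaves the receptors during their maturation, and *TLE4*, a co-repressor, were lower in HCC4006 (differences -1.47 and -1.76, adjusted p = 1.3e-04 for both by limma). With DEM, *NEURL1B* averaged under 1 FPKM and was not tested, at 3.15 times the ABC1 level in HCC4006. *DTX3L* was then among the leading genes higher in HCC4006, with a difference of 1.45 (adjusted p = 3.5e-04 by limma), and *LFNG*, *DTX3*, *DTX4* and *FURIN* kept their direction at 2.53, 2.62, -3.73 and -1.51.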

How the data were processed

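RNA-seq was performed on poly(A)-selected, strand-specific libraries of ABC1 and HCC4006 cells. According to the study's methods, the authors aligned reads to hg19 with TopHat and estimated levels with Cufflinks, whereas the submitters' processing notes name STAR 2.5.3a, Cuffnorm, HTSeq and DESeq2, and which of them made the files is not settled. The deposited FPKM values (8 libraries, 4 groups of 2) were used as given. From the authors' comparison tables, only the base mean, a signal of depth-scaled counts deposited as a mean over a line's 4 libraries, was used. Their fold changes and p-values were not used. Symbols were found for 55534 of 57815 identifiers, and gene positions are from GENCODE on GRCh37.

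Values were tested on log2(FPKM + 1) by limma 3.58.1 (R 4.3.3, trended variance) for every gene whose mean over the fitted libraries reached 1 FPKM, with Benjamini-Hochberg adjustment over all genes tested. The scripts were tested on simulated data. For groups of 2, the smallest p of an exact two-sided permutation test is 0.333. The study's methods call the libraries of a group biological duplicates. The 10 genes, the list of 56 and the marker lists were chosen with earlier results of these data known. All 10 genes were named in every comparison. Of the 56, the 3 called genes of each direction with the smallest p were given per comparison, with any other receptor or ligand; others among those called were named after their values were seen, and 1 gene is not reported here. For *NOTCH3*, *HES1* and *JAG1*, the 3 genes most alike were named. Alternatives were another pseudocount, other minimum levels, median-of-ratios scaling, no trend, a replicate block, 1 fit of all 8 libraries and leaving out each library.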

Additional observations from a re-analysis of the deposited data

How the results depend on the processing

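Of 521 values of single genes under the alternatives, 471 kept their direction and their side of the threshold, 35 lost it, 3 gained it and 12 changed sign. In HCC4006, where 2 of the 10 genes were called with DEM, 0 were called without the minimum of 1 FPKM, 1 with a minimum of 5 FPKM (*NOTCH1* could not be tested), 1 with median-of-ratios scaling, 1 without the mean-variance trend, and 0 whichever library was left out. In ABC1, where 0 were called, *JAG1* was called in 1 fit of all 8 libraries and with a replicate block, which makes 1 in each. With vehicle, 7 genes differed between the lines, 4 of the 6 that could be tested with a minimum of 5 FPKM, 5 without a minimum and 4 to 7 without one library. With DEM, 10 differed, 8 without a minimum and 4 to 10 without one library. Under DEM and a minimum of 5 FPKM, 7 were called, and *DLL1*, *HEY1* and *NRARP* could not be tested. Sign changes were all in uncalled values: *HES4* in ABC1 was 0.000709 with median-of-ratios scaling. Without one library, *HES4* lay between -0.26 and 0.24 in ABC1, between -0.28 and 0.052 in HCC4006 and between -0.35 and 0.15 in the difference of responses. For *NRARP* the lowest and highest values were -0.17 and 0.65 in ABC1, and -0.59 and 0.23 in the difference. *NOTCH2* lay between -0.0064 and 0.22 in HCC4006 and between -0.064 and 0.38 between the vehicle lines, and *JAG2* in HCC4006 between -0.37 and 0.11. The cause of these changes was not tested. A lone library left in a group is assumed to vary like the others.

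Over all genes, ABC1 had 97 called higher and 55 lower with DEM, but 0 and 0 without a minimum (more genes were tested), 27 and 6 without the trend, 1185 and 1163 with the replicate block and 738 and 756 in 1 fit of all 8 libraries. With median-of-ratios scaling it had 158 and 93, and with a minimum of 5 FPKM 137 and 94. HCC4006 had 1144 and 1447, but 177 and 193 without a minimum and 706 and 847 in 1 fit of all 8 libraries. The difference of the responses had 42 and 45, but 11 and 9 with a pseudocount of 0.1, 173 and 230 without a minimum and 5 and 8 with the replicate block. Leaving out 1 library called 10 to 51 genes higher in ABC1 and 290 to 464 in HCC4006. The deviations of same-numbered vehicle and DEM libraries correlated with r = 0.26 in ABC1 and 0.05 in HCC4006. With 2 numbers only, these values cannot decide whether a number marks a shared culture or day, and the labels do not say. With the block, the counts of the 10 genes called did not change in HCC4006 or between the lines. *DLL1* in ABC1 and *HEY1* and *NRARP* in HCC4006 lay under the minimum of 1 FPKM; without a minimum their DEM differences were 0.08, 0.14 and 0.07 (adjusted p = 0.831, 0.267 and 0.872 by limma).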
